A study of Bos taurus with 16 samples.

Results

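The 45 genes described here encode the complement proteins, the clotting factors and the inhibitors and control proteins that belong with them in blood plasma. They were taken from the array annotation by their gene symbols, with 1 transcript cluster (a set of probes for 1 gene) per symbol, and all 45 of 45 were found among the 20421 transcript clusters of the array. The study compared livers of 16 multiparous Holstein cows at week 1 postpartum, 8 labelled *FGF21* high and 8 labelled *FGF21* low, each with an array of its own. The *FGF21* high cows had the highest and the *FGF21* low cows the lowest hepatic *FGF21* expression in a larger herd, so the groups were chosen by a measured level and not by a treatment. All cows were female, were fed the same total mixed ration and had needed no medical treatment. No age of the single animals was given with the samples, and the RNA integrity was given for all samples together and not per cow. The study reported some degradation of the RNA, which by its account can lower the sensitivity and specificity of arrays. It held the integrity to be sufficient for hybridization.

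Complement is a chain of plasma proteases and binding proteins that marks and lyses microbes. It starts on antibody (C1), on sugars (the lectin pathway with the MASP proteases) or by itself (the alternative pathway), meets at *C3*, and ends in the pore of C5 to C9. Coagulation is a second chain of proteases, which ends in thrombin and turns fibrinogen into fibrin; inhibitors hold it back and plasmin dissolves the clot. Hepatocytes make most of these proteins, while *C1QA*, *C1QB*, *C1QC* and *CFP* are known products of macrophages and other myeloid cells, *F8* of endothelial cells and *C7* also of stromal cells. Several members are acute phase proteins, which the liver makes in larger amounts during inflammation.

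Arrays had median log2 signals between 6.25 and 6.34, and the median correlation of an array with the others was between 0.982 and 0.987. *FGF21*, by which the cows were chosen, had signals of 6.16 to 8.69 in *FGF21* high cows and 4.78 to 5.51 in *FGF21* low cows, so the arrays matched their labels and the difference only describes the choice of cows. The 10 hepatocyte markers averaged 11.44 to 11.73 in *FGF21* high cows and 11.57 to 11.74 in *FGF21* low cows, far above the array medians. Each member was measured by 16 to 36 probes. The values below are log2 signals, and differences between groups are log2 fold changes, *FGF21* high minus *FGF21* low. The signals of different genes are not set against each other, since each depends on its own probes. In such bulk tissue, fewer cells of a type and less RNA per cell cannot be told apart.

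No member passed the test between the groups, but 36 of the 45 had a positive fold change. At a p adjusted over all clusters by limma, 0 of 45 members were called at the threshold of 0.05, and 0.0294% of all clusters were called (6 of 20421), 0.0196% as higher and 0.00979% as lower. The adjusted p of the members was between 0.508 and 0.999. Without adjustment, 2 members (4.44%) were higher in *FGF21* high cows at a p under 0.05, *F13B* and *MASP1*, and 2.89% of all clusters were. Of the 7774 clusters with a mean signal of at least that of the lowest member, 4.45% were, which is the share of the members. On the lower side 0 members were found, against 4.52% of all clusters. With a fold change above 1.2 in addition, which the methods of the study required, 1 member was left, *F13B*, and 1.29% of all clusters were higher by this rule. The groups were free of overlap for 0 of 45 members and for 0.0539% of all clusters.

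The median log2 fold change of the members was 0.07, and it was −0.02 over all clusters. A positive fold change was found for 80.0% of the members and for 43.4% of all clusters. Members have high signals on these arrays, and among those 7774 clusters 50.6% were positive. With the group means removed, the first principal component of the members held 33.5% of their variance. Its scores were lowest in replicate 3 (−0.44) and highest in replicate 8 (0.47), both of the *FGF21* low group. The members thus partly varied together from cow to cow, and their signs are not 45 separate observations. The sizes were small. The 95% interval of 26 members lay within a 1.2-fold difference in either direction, and that of all 45 within 1.5-fold. The highest upper bound of a member was 1.36-fold higher in *FGF21* high cows, and the lowest bound was 1.42-fold lower.

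**Figure D1:**
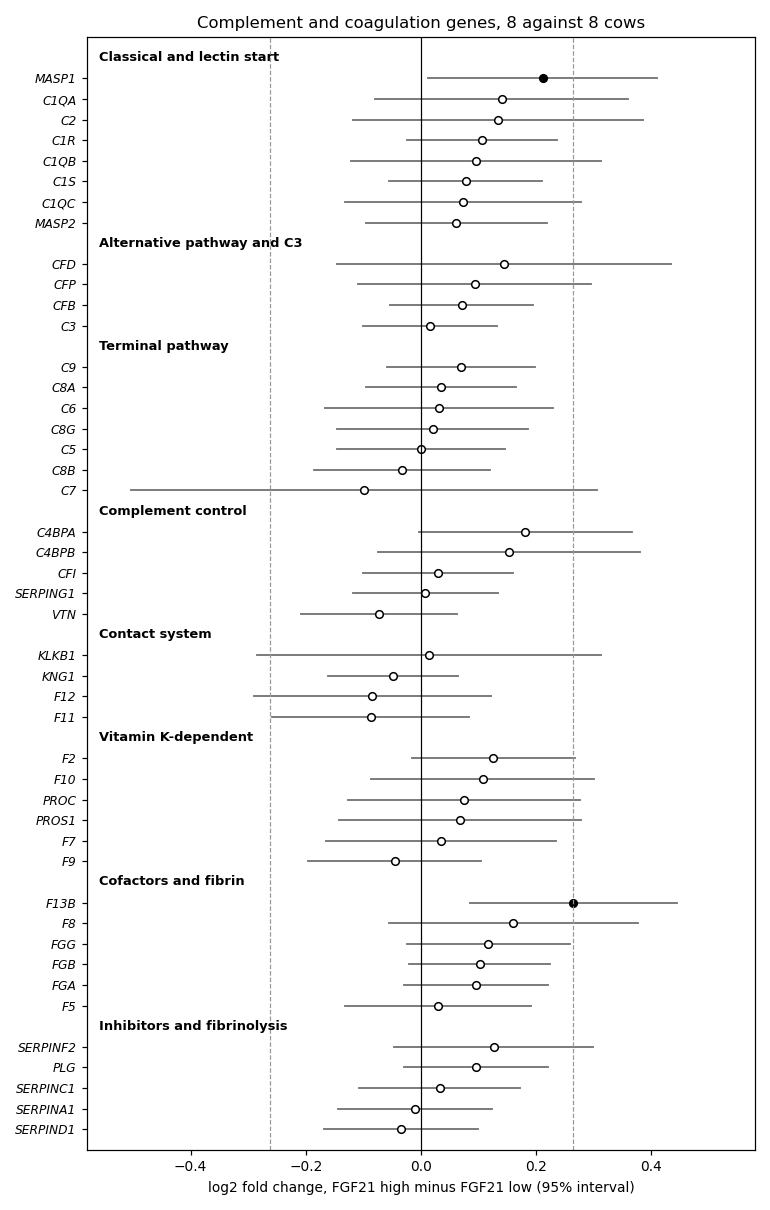
Log2 fold change (*FGF21* high minus *FGF21* low, dots) of the 45 genes with the 95% interval from limma (lines), grouped by role; filled dots have an unadjusted p under 0.05 and dashed lines mark a 1.2-fold difference. Dots lie right of 0 for 36 genes, and the intervals of *F13B* and *MASP1* do not include 0.

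Among the coagulation genes, all 6 cofactors and fibrin-forming genes had a positive fold change, with a median of 0.11. *F13B*, the carrier subunit of the factor that crosslinks fibrin, had signals of 10.35, 10.61 and 10.86 (lowest, median and highest) in *FGF21* high cows and of 10.01, 10.36 and 10.55 in *FGF21* low cows. The log2 fold change was 0.26 (standard error 0.09, p = 0.0062 and adjusted p = 0.508 by limma; two-sided exact permutation p = 0.0067). The groups overlapped, but 6 of the 8 *FGF21* high cows lay above every *FGF21* low cow. This unadjusted p stayed under 0.05 in all 16 fits that left out 1 cow.

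The 3 fibrinogen chains form one hexamer, the precursor of fibrin. *FGB*, the β chain, had signals of 13.25, 13.30 and 13.39 in *FGF21* high cows and of 13.06, 13.23 and 13.35 in *FGF21* low cows, a log2 fold change of 0.10 (standard error 0.06, p = 0.0988 and adjusted p = 0.741 by limma, two-sided exact permutation p = 0.0233). *FGG*, the γ chain, had 13.09, 13.30 and 13.35 in *FGF21* high cows and 12.94, 13.17 and 13.33 in *FGF21* low cows (log2 fold change 0.12, standard error 0.07, p = 0.0994 and adjusted p = 0.742, exact permutation p = 0.0591). *FGA*, the α chain, had 13.45, 13.59 and 13.63 in *FGF21* high cows and 13.29, 13.50 and 13.56 in *FGF21* low cows (log2 fold change 0.10, standard error 0.06, p = 0.130 and adjusted p = 0.770, exact permutation p = 0.0454). The groups overlapped for each chain, and 2 *FGF21* low cows, replicates 3 and 5, lay lowest for all 3 chains.

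*F2*, prothrombin, had signals of 11.54, 11.61 and 11.82 in *FGF21* high cows and of 11.31, 11.53 and 11.70 in *FGF21* low cows. Its log2 fold change was 0.13 (standard error 0.07, p = 0.0792 and adjusted p = 0.717 by limma, exact permutation p = 0.0455). All 8 *FGF21* high cows lay above the mean of *FGF21* low cows, and the groups overlapped. *F8*, the cofactor of factor IX, had 7.18, 7.52 and 7.93 in *FGF21* high cows and 7.09, 7.42 and 7.57 in *FGF21* low cows (log2 fold change 0.16, standard error 0.10, p = 0.139 and adjusted p = 0.776, exact permutation p = 0.165). *PLG*, plasminogen, which is cut to the clot-dissolving plasmin, had 12.52, 12.68 and 12.76 in *FGF21* high cows and 12.47, 12.57 and 12.67 in *FGF21* low cows (log2 fold change 0.10, standard error 0.06, p = 0.124 and adjusted p = 0.766, exact permutation p = 0.0424). The groups overlapped for both genes.

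Among the complement genes, all 8 of the classical and lectin start had a positive fold change. *MASP1*, a protease of the lectin pathway, had signals of 9.74, 10.004 and 10.17 in *FGF21* high cows and of 9.35, 9.72 and 10.06 in *FGF21* low cows. The log2 fold change was 0.21 (standard error 0.10, p = 0.0386 and adjusted p = 0.647 by limma, exact permutation p = 0.0469). The groups overlapped widely, and 5 *FGF21* low cows lay below every *FGF21* high cow. Of the 16 fits that left out 1 cow, 6 kept the unadjusted p of *MASP1* under 0.05.

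*C4BPA*, the α chain of the C4b-binding protein, which slows the classical pathway, had signals of 11.78, 11.91 and 12.12 in *FGF21* high cows and of 11.33, 11.76 and 12.01 in *FGF21* low cows. The log2 fold change was 0.18 (standard error 0.09, p = 0.0548 and adjusted p = 0.683 by limma, exact permutation p = 0.0566). *C1R*, the protease that starts the classical pathway, had 12.05, 12.13 and 12.23 in *FGF21* high cows and 11.90, 12.01 and 12.20 in *FGF21* low cows (log2 fold change 0.10, standard error 0.06, p = 0.108 and adjusted p = 0.752, exact permutation p = 0.0444). For both genes the 8 *FGF21* high cows lay above the mean of *FGF21* low cows, while the ranges overlapped. The array holds a second cluster annotated as complement C1r and 1 each that resembles *C3* and *CFD*; how far the probes of such copies cross-react was not tested.

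**Figure D2:**
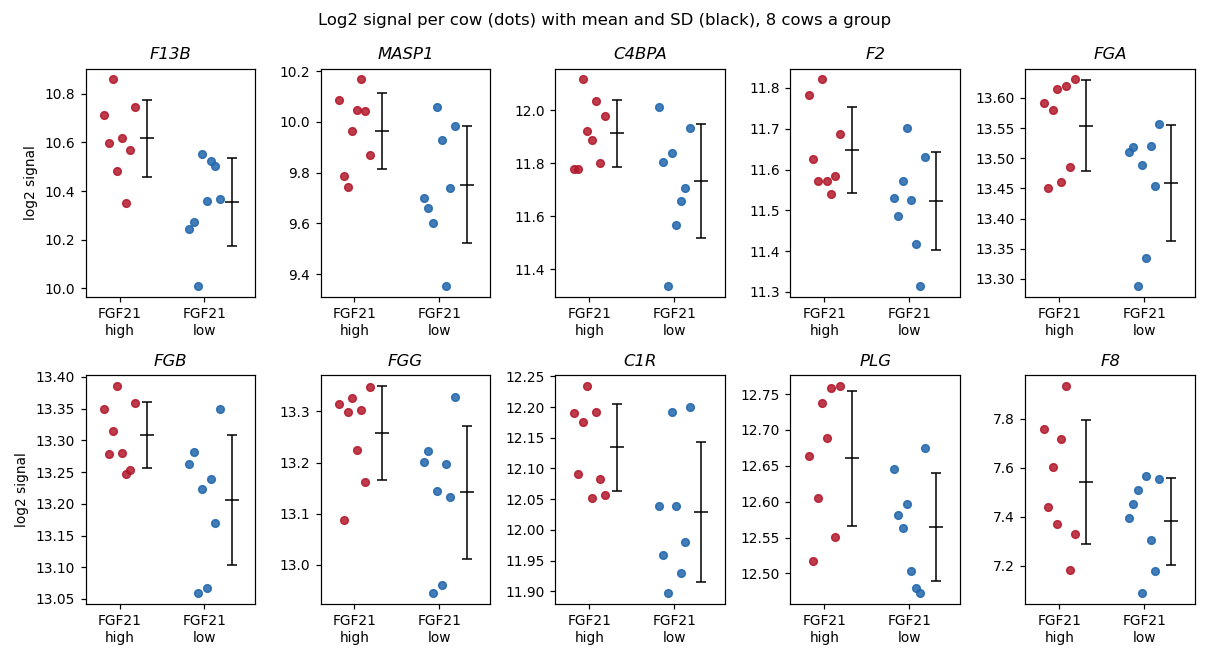
Log2 signal of each cow (dots) for the 10 genes with the smallest limma p, in *FGF21* high cows (left, red) and *FGF21* low cows (right, blue), with the mean and SD in black (8 cows each). The groups overlap in every panel; *F13B* has a mean of 10.62 in *FGF21* high cows and 10.35 in *FGF21* low cows.

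The remaining genes are given by role. The 4 genes of the alternative pathway and *C3* were all positive, with log2 fold changes of 0.02 to 0.14. Of the 7 genes of the terminal pathway, which forms the pore, 5 were positive, with a median of 0.02 and with adjusted p between 0.853 and 0.999. Of the 5 complement control genes 4 were positive, and *VTN*, vitronectin, was the exception at −0.07. Of the 6 vitamin K-dependent genes 5 were positive, with *F9* at −0.05. The contact system, which starts clotting on surfaces and releases kinins, was the only role with mostly negative values. Its genes *F11*, *F12* and *KNG1* had log2 fold changes of −0.09, −0.08 and −0.05, and *KLKB1* was at 0.01. The inhibitors and fibrinolysis genes lay between −0.04 and 0.13, with *SERPIND1*, heparin cofactor II, and *SERPINA1*, α1-antitrypsin, below 0.

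The 4 members with the largest spread over the 16 cows had wide intervals between the groups. *C7*, a terminal pore component, had the largest SD, 0.43, with signals of 7.34, 7.73 and 8.24 in *FGF21* high cows and of 7.29, 7.68 and 8.63 in *FGF21* low cows (log2 fold change −0.10, standard error 0.19, adjusted p = 0.952 by limma). *KLKB1*, plasma prekallikrein, had an SD of 0.31, with 9.19, 9.71 and 10.21 in *FGF21* high cows and 9.30, 9.59 and 10.07 in *FGF21* low cows (log2 fold change 0.01, standard error 0.14, adjusted p = 0.992). *CFD*, the protease of the alternative pathway, had an SD of 0.31, with 8.69, 9.21 and 9.43 in *FGF21* high cows and 8.29, 9.03 and 9.40 in *FGF21* low cows (log2 fold change 0.14, standard error 0.14, adjusted p = 0.866). The ranges overlapped widely in all 3 genes, although 3 *FGF21* low cows lay above every *FGF21* high cow in *C7*. *C2*, the protease that pairs with C4b, came next with an SD of 0.26, with 10.94, 11.12 and 11.53 in *FGF21* high cows and 10.40, 11.05 and 11.42 in *FGF21* low cows (log2 fold change 0.13, standard error 0.12, adjusted p = 0.854).

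Because several members are acute phase proteins, each was set against an acute phase index, the mean of the z-scored signals of 11 acute phase genes that are no members (*SAA2*, *SAA3*, *SAA4*, *M-SAA3.2*, *HP*, *LBP*, *ITIH4*, *ORM1*, *CRP*, *SERPINA3* and *CP*). The index ran from −0.94 to 1.07 with a median of 0.58 in *FGF21* high cows, and from −1.27 to 0.65 with a median of −0.37 in *FGF21* low cows. It was above 0 in 6 of 8 *FGF21* high cows and in 2 of 8 *FGF21* low cows. Haptoglobin (*HP*), its most variable gene, had signals of 7.62, 12.40 and 12.75 in *FGF21* high cows and of 6.74, 9.92 and 12.45 in *FGF21* low cows. In both groups some cows were low and others were high. The gene *M-SAA3.2* had an r of −0.11 with the index, although it is part of it.

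Most members had a positive correlation with the index over the 16 cows. It was positive for 40 of 45 members, with a median r of 0.38, and the median over all clusters outside the index was −0.0012. An r above 0.5 was found for 16 members (35.6%) and for 2.84% of the 20410 clusters, and an r below −0.5 for 1 member (2.22%) and 2.61%. These shares were not counted among clusters with signals as high as those of the members. The index itself had an r of 0.50 with the group, so an r over the 16 cows includes the difference between the groups. The sign was positive within both groups for 31 members. The terminal pathway and the cofactors with fibrinogen had the highest medians, 0.62 each, with 4 members above 0.5 in both. After quantile normalization was applied once more, a setting added here after seeing the data, the terminal pathway had a median of 0.63 and the cofactors with fibrinogen one of 0.48. *FGA* then had an r of 0.24 in place of 0.61, *FGB* one of 0.45 in place of 0.65 and *FGG* one of 0.60 in place of 0.72, and *FGG* within the *FGF21* high group had 0.35 in place of 0.92. The contact system had a median of 0.26 and ran from −0.70 to 0.45, and the inhibitors and fibrinolysis genes had a median of 0.15 and ran from −0.46 to 0.90. All points come from the same 16 arrays, and the index had an r of 0.27 with the array's interquartile range.

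**Figure D3:**
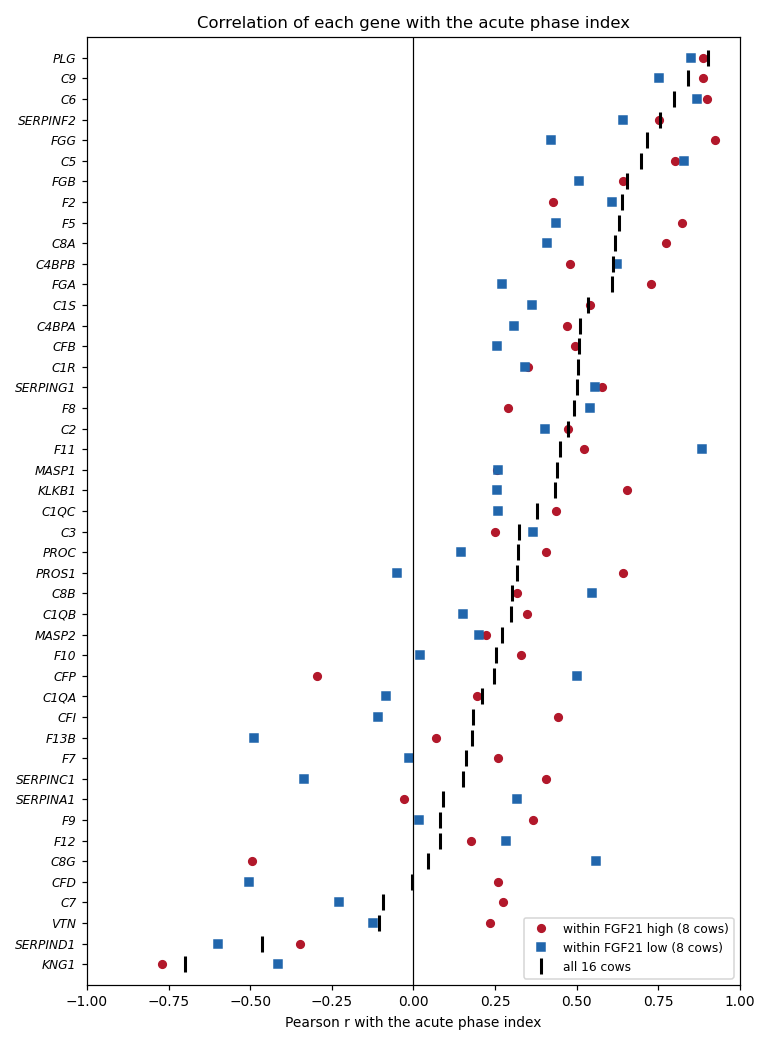
Pearson r of each of the 45 genes with the acute phase index, over all 16 cows (black bars), within the *FGF21* high group (red dots, 8 cows) and within the *FGF21* low group (blue squares, 8 cows). *PLG*, *C9* and *C6* lie far right in both groups (0.89, 0.89 and 0.90 within the first, 0.85, 0.75 and 0.87 within the second), and *KNG1* and *SERPIND1* lie below 0 in both.

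*PLG* had the highest correlation in these values, r = 0.90 (permutation p = 2e-05; rho = 0.92, permutation p = 2e-05). It was 0.89 within the *FGF21* high group (exact permutation p = 0.00241) and 0.85 within the *FGF21* low group (p = 0.00905), and 0.86 without the 2 cows farthest from the median index. With *HP* alone *C9* was first (0.82) and *PLG* also had 0.82. After quantile normalization was applied once more *C6* was first (0.82) and *PLG* had 0.78, with 0.70 within the *FGF21* high group (exact permutation p = 0.0538) and 0.66 within the *FGF21* low group (exact permutation p = 0.0742). *C9*, which forms the wall of the pore, had an r of 0.84 (permutation p = 4e-05; rho = 0.86, permutation p = 4e-05), with 0.89 within the *FGF21* high group, 0.75 within the *FGF21* low group and 0.83 without the 2 cows. *C6*, another pore component, had an r of 0.80 (permutation p = 0.00024; rho = 0.79, permutation p = 0.00032), with 0.90 within the *FGF21* high group, 0.87 within the *FGF21* low group and 0.84 without the 2 cows. These relations were positive within each group of 8 cows. With the repeated quantile normalization *C9* had an r of 0.76 over all cows. Within the *FGF21* high group it then had 0.79 (exact permutation p = 0.0298), and within the *FGF21* low group 0.55 (exact permutation p = 0.163). *C6* then had 0.91 and 0.86 within the high and low groups (exact permutation p = 0.0191 and 0.00615). The groups themselves overlapped in *C9*, with 12.38, 12.67 and 12.73 in *FGF21* high cows and 12.50, 12.55 and 12.68 in *FGF21* low cows. They overlapped likewise in *C6*, with 11.53, 11.98 and 12.10 in *FGF21* high cows and 11.68, 11.82 and 12.10 in *FGF21* low cows. The log2 fold changes were 0.07 for *C9* (standard error 0.06, adjusted p = 0.853 by limma) and 0.03 for *C6* (standard error 0.09, adjusted p = 0.971).

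At the other end stood *KNG1*, kininogen, with r = −0.70 (permutation p = 0.00309; rho = −0.71, permutation p = 0.00277). Its r was −0.77 within the *FGF21* high group (exact permutation p = 0.0262), −0.41 within the *FGF21* low group (p = 0.307, exact permutation) and −0.63 without the 2 cows. With the repeated quantile normalization it was −0.61 over all cows (permutation p = 0.0134). Within the *FGF21* high group it was then −0.65 (exact permutation p = 0.0867), and within the *FGF21* low group −0.61 (exact permutation p = 0.11). *KNG1* had 12.82, 12.90 and 13.04 in *FGF21* high cows and 12.87, 12.96 and 13.03 in *FGF21* low cows (log2 fold change −0.05, standard error 0.05, adjusted p = 0.891 by limma), so the groups overlapped almost fully. *SERPIND1* had an r of −0.46 (permutation p = 0.0719; rho = −0.40, permutation p = 0.131), and −0.41 without the 2 cows. Its signals were 11.32, 11.40 and 11.67 in *FGF21* high cows and 11.32, 11.47 and 11.59 in *FGF21* low cows (log2 fold change −0.04, standard error 0.06, adjusted p = 0.947). *VTN* came next with −0.10 (permutation p = 0.698; rho = −0.09, permutation p = 0.746), and its sign was positive within the *FGF21* high group and without the 2 cows. Its signals were 12.81, 12.91 and 13.18 in *FGF21* high cows and 12.83, 13.03 and 13.12 in *FGF21* low cows (log2 fold change −0.07, standard error 0.07, adjusted p = 0.853). The signals of these 3 genes overlapped between the groups.

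**Figure D4:**
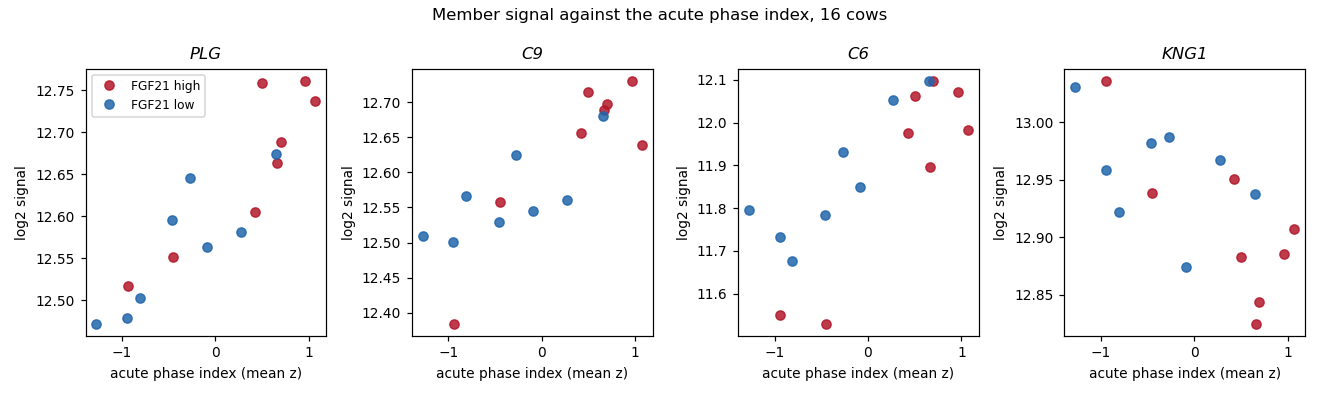
Log2 signal of *PLG*, *C9*, *C6* and *KNG1* (vertical axes) against the acute phase index (horizontal axes, mean z) in 16 cows, *FGF21* high in red and *FGF21* low in blue. The first 3 genes are higher in cows with a higher index (r = 0.90, 0.84 and 0.80), and *KNG1* is lower (r = −0.70).

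The 45 correlations were not adjusted among themselves; the adjustment was made over all clusters, with a limma fit of the slope on the index beside the group. In that fit 0 members were called at an adjusted p under 0.05, and 0.0343% of clusters were called with a positive slope. Without adjustment 10 members had a positive slope at a p under 0.05 (2.57% of all clusters) and 0 a negative one (1.57%). With only the 10200 clusters above the median signal kept, 10 members and 3.06% of clusters had a positive slope at this p. The slopes of that fit are given per SD of the index over all cows, and not per unit of its mean z. The smallest p was that of *C6*, with a slope of 0.19 (standard error 0.04, adjusted p = 0.135). *C5*, the start of the pore, followed with 0.11 (standard error 0.03, adjusted p = 0.927). *PLG* came 6th in that fit, with 0.08 (standard error 0.03, adjusted p = 0.999 by limma). Removing the group means from the index and the signals left *PLG* an r of 0.87 and *C6* one of 0.88. A variance model with a trend and robust fitting gave *C6* an adjusted p of 0.0468, and this model was added after the data had been seen.

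Subunits of one complex mostly moved together from cow to cow. Of 11 partner pairs, 7 had an adjusted p under 0.05 over the 11 pairs, by permutation. All 7 are also neighbours on a chromosome of the array annotation, so a shared complex and a shared place cannot be told apart. Pairs that are neither partners nor neighbours were not set beside them. *FGA* and *FGG* had an r of 0.96 (rho = 0.91), *FGB* and *FGG* one of 0.91 (rho = 0.87) and *FGA* and *FGB* one of 0.88 (rho = 0.71). Leaving out the 2 cows farthest from the median, replicates 3 and 5 of the *FGF21* low group, gave 0.91, 0.77 and 0.68 for these pairs. Within the *FGF21* high group they had 0.92, 0.63 and 0.57, and within the *FGF21* low group 0.97, 0.99 and 0.96. The chains of C1q, which recognises antibody, had 0.96 for *C1QB* and *C1QC* (rho = 0.96), 0.87 for *C1QA* and *C1QC* (rho = 0.83) and 0.86 for *C1QA* and *C1QB* (rho = 0.86), and 0.92, 0.74 and 0.75 without 2 cows. The largest adjusted permutation p of these 6 pairs was 0.00011. *C1R* and *C1S*, the paired proteases of C1, had an r of 0.71 (rho = 0.65, adjusted permutation p = 0.00391). Without 2 cows it was 0.54 and did not pass (adjusted permutation p = 0.0655). Their r was 0.21 within the *FGF21* high group and 0.83 within the *FGF21* low group. The difference between the groups was not tested.

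Over the 16 cows, the 3 chains of C8 did not pass. *C8A* and *C8G* had an r of −0.07 (rho = −0.07, adjusted permutation p = 0.790), *C8A* and *C8B* one of 0.23 (rho = 0.26, adjusted permutation p = 0.420), and *C8B* and *C8G* one of 0.40 (rho = 0.35, adjusted permutation p = 0.150). Within the *FGF21* high group these pairs had −0.60, 0.03 and −0.01, and within the *FGF21* low group 0.52, 0.53 and 0.81. The last of these passed within its group (adjusted exact permutation p = 0.0213). The difference between the groups was not tested. *C8G*, a lipocalin unlike the other chains, lies on chromosome 11 of the array annotation, and the other chains lie beside each other on chromosome 3. *C4BPA* and *C4BPB*, neighbours on chromosome 16, had an r of 0.48 (rho = 0.49, adjusted permutation p = 0.0782), and 0.67 without 2 cows. The 4 further neighbour pairs that are no partners were looked at after these values were known. *F7* and *F10*, which act together in the tissue factor pathway, had an r of 0.74 (rho = 0.80, adjusted permutation p = 0.00532 over the 4 pairs). *CFB* and *C2*, related proteases, had 0.62 (rho = 0.58, adjusted permutation p = 0.0175), and 0.50 without 2 cows (permutation p = 0.0705). *KLKB1* and *F11*, also related, had 0.37 (rho = 0.37, adjusted permutation p = 0.205). *C6* and *C7* had −0.04 (rho = −0.03, adjusted permutation p = 0.894), though both are terminal genes on chromosome 20.

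**Figure D5:**
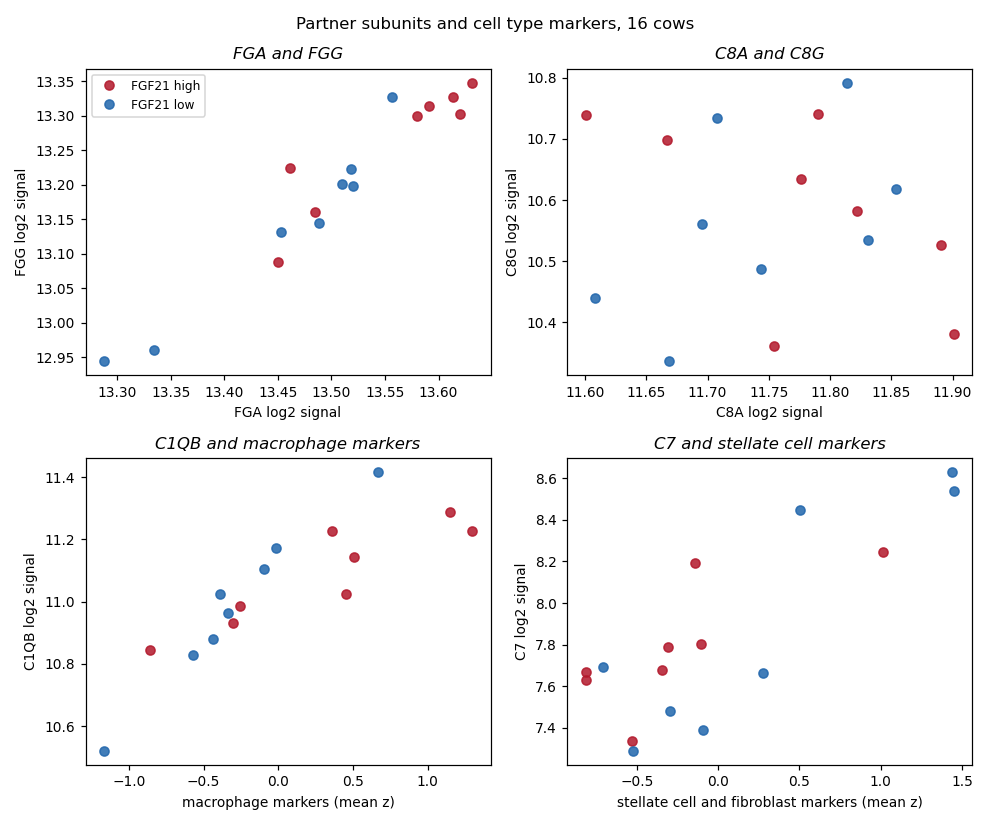
Log2 signals of 16 cows (*FGF21* high red, *FGF21* low blue): *FGG* against *FGA* (r = 0.96), *C8G* against *C8A* (r = −0.07), *C1QB* against the mean z of 12 macrophage markers (r = 0.86), and *C7* against the mean z of 9 stellate cell and fibroblast markers (r = 0.82).

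Members known from cells other than hepatocytes were set against markers of those cells, in 7 relations chosen after other results were known. With the 12 Kupffer cell and macrophage markers, *C1QA* had an r of 0.85 (rho = 0.85), *C1QB* of 0.86 (rho = 0.90), *C1QC* of 0.87 (rho = 0.83) and *CFP*, properdin, of 0.67 (rho = 0.62), with adjusted permutation p of at most 0.00553. Without the 2 cows farthest from the median these were 0.81, 0.89, 0.84 and 0.53, the last with a permutation p of 0.0521. *CFD* had −0.25 with the same markers (rho = −0.03, adjusted permutation p = 0.345). *C7* had 0.82 with the 9 stellate cell and fibroblast markers (rho = 0.64, adjusted permutation p = 0.00035), and 0.65 without 2 cows. *F8* had 0.48 with the 9 endothelial markers (rho = 0.47, adjusted permutation p = 0.0713). These relations compare signals of the same arrays.

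The marker lists were also compared between the groups. All 12 macrophage markers had a positive fold change, with a mean level of 7.85 to 8.58 in *FGF21* high cows and of 7.81 to 8.39 in *FGF21* low cows. *TIMD4* (0.49) and *CSF1R* (0.24) had an unadjusted p under 0.05 by limma. Of the 9 endothelial markers 8 were positive, with levels of 7.76 to 8.03 in *FGF21* high cows and of 7.62 to 7.99 in *FGF21* low cows. Here *LYVE1* (0.38), *CLEC4G* (0.23) and *CD34* (−0.21) had an unadjusted p under 0.05. All 9 stellate cell and fibroblast markers were negative, with 6.85 to 7.47 in *FGF21* high cows and 6.91 to 7.61 in *FGF21* low cows, and *COL1A2* (−0.19) had an unadjusted p under 0.05. Of the 10 hepatocyte markers 3 were positive, with *HPX* at 0.33, *CPS1* at −0.21 and *APOA1* at −0.31. Of 8 neutrophil and platelet markers 6 were positive, with *PF4* at 0.19, and of 6 lymphocyte markers 3 were. No marker of these lists had an adjusted p under 0.05, and the part of these cells in the fold changes of the members was not tested.

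Other genes of the same pathways were counted beside the members. Of 21 further complement genes, 15 were positive and 0 passed the adjusted p. *ITGAM*, a subunit of a receptor for cleaved C3, had a log2 fold change of 0.23 (adjusted p = 0.614 by limma) and *C4A*, the C4 protein, beside which the array holds a C4-like cluster, one of 0.27 (adjusted p = 0.642). Of 29 further genes of coagulation and fibrinolysis, 11 were positive, 0 passed the adjusted p, and *SERPINB2*, an inhibitor of plasminogen activators, was at −0.36 (adjusted p = 0.663 by limma). None of 7 genes of the vitamin K cycle, which completes several clotting factors, had a p under 0.05. Of the 11 acute phase genes, 10 were positive and 0 passed the adjusted p. An unadjusted p under 0.05 was found for 5, *CP* (0.23), *LBP* (0.74), *SAA4* (0.71), *ORM1* (0.22) and *SAA2* (0.41). The study itself reported that hepatic *CP* did not differ between the groups. Here *CP* was read from a cluster that the array does not label *CP*, and the reason for this difference was not tested. Of 13 regulators of liver genes, *CEBPA* was at 0.28 and *CEBPD* at −0.25, with adjusted p of 0.538 and 0.539 by limma. The genes named in these lists are those with an unadjusted p under 0.05.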

How the data were processed

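Total RNA of 16 liver biopsies was hybridized to Affymetrix whole-transcript arrays at a service provider. The deposited log2 signals were made by the authors in Affymetrix Expression Console 1.4 with SST-RMA, which is RMA (background correction, normalization between arrays, summary of probes) together with a signal space transformation, as the name of the deposited sheet shows. A copy rounded to 2 decimals was used as an alternative. Columns with the authors' own comparison (means per group, fold changes, p-values) were left out. Per-sample depth does not exist for arrays, and their number limits the precision. Genome build and raw images were not used here.

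The comparison used limma (version 3.58.1, R 4.3.3) with lmFit and eBayes, 1 term for the group and no filter; Benjamini-Hochberg adjustment covered the 20421 clusters. The fit was tested on simulated data. Single members were compared by two-sided exact permutation over 12870 assignments (smallest p 0.00016). Correlations had 100000 permutations (smallest p 1e-05) or, within a group, all 40320 pairings; Python 3.11.15, numpy 2.4.6, pandas 2.3.3 and scipy 1.17.1 were used. The slope on the index used 20410 clusters, without the 11 index genes, in place of an adjustment over the members alone. *CP* was read from a cluster whose accession the reference names *CP*. For 42 of 45 members the accession carried the same symbol in the RefSeq table; for the others it was not in that table. List genes with more than 1 cluster were read from their brightest cluster on average.

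The members, lists and rules were chosen with earlier results of these data known. Described in full were members with an unadjusted p under 0.05, the 10 smallest p, the 4 largest SD, all partner pairs, and the 3 highest and 3 lowest correlations with the index, and of each other list up to 6 genes with an unadjusted p under 0.05. Outlying cows were found with Dixon's ratio (critical value 0.526 for 8). Alternatives were Welch's test, the methods' t-test, a trended robust variance, array weights, rounded values, quantile normalization applied again, subtraction of the array median, a filter at the median signal of 6.28, a replicate block, the labels' running number as a covariate and each cow left out. Added after seeing the data were the index slope with its settings, the cell marker relations, the neighbour pairs and the principal component.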

Additional observations from a re-analysis of the deposited data

Results flagged for a closer look

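In 5 of 90 groups of 8 cows (45 genes in each group) 1 cow lay far from the others by Dixon's ratio, and chance flags about 1 in 20 groups. *SERPINF2*, the inhibitor of plasmin, was at 11.62 in replicate 8 of the *FGF21* low group and at 11.15 to 11.34 in the others. *VTN* was at 12.83 in replicate 3 of the *FGF21* low group, against 12.99 to 13.12. *PROC*, protein C, was at 10.78 in replicate 4 of the *FGF21* high group, against 10.26 to 10.50. *PROS1*, the cofactor of protein C, was at 10.03 in replicate 2 of the *FGF21* low group, against 10.44 to 10.82. *C3* was at 13.28 in replicate 7 of the *FGF21* high group, against 13.37 to 13.44. Each flag concerned another cow, but the ratio looks at 1 gene at a time and cannot show a cow that is low in many genes.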

How the results depend on the processing

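The number of members called at an adjusted p was 0 under each of the 26 alternatives. The log2 fold changes of the 10 members with the smallest p kept their sign in all 260 alternative values. The median log2 fold change of the members ranged from 0.04 to 0.09. The number of members higher at an unadjusted p under 0.05, 2 by limma, was 7 by the methods' t-test, 6 by Welch's test and 4 after quantile normalization was applied again. Leaving out 1 cow gave 1 to 5, with 1 without replicates 4, 5 or 6 of the *FGF21* high group or replicates 2, 3, 6 or 7 of the *FGF21* low group, 4 without replicate 4 and 5 without replicate 8 of the *FGF21* low group. For the methods' t-test, 0 members passed after Benjamini-Hochberg adjustment. The share of all clusters at an unadjusted p under 0.05 was not counted for these alternatives, so these numbers only describe the members.

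The groups share only replicate numbers. Same-numbered cows had correlations of their deviations between −0.21 and 0.13, so the numbers do not pair the cows. The replicate block gave 1 member at an unadjusted p under 0.05, and the share of all clusters was not counted there. At the same threshold, the slope on the index was positive for 3 members, beside 4.81% of all clusters. It was negative for 1 member, beside 1.44% of all clusters.

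The number of members with a positive correlation with the index at a permutation p under 0.05 was 17 over all cows, 9 within the *FGF21* high group, 5 within the *FGF21* low group and 9 without the 2 cows farthest from the median. For *HP* alone and after quantile normalization again it was 12 each. These permutation tests were not run over all clusters, so no share of all clusters stands beside these numbers. The 10 positive slopes became 3 within each group, and 6 to 11 with 1 cow left out, with 6 without replicate 2 of the *FGF21* high group. At an adjusted p 1 member passed with the low signal filter and 1 with the trended robust variance. Of all clusters in these fits, 0.098% and 0.0441% passed with a positive slope. Partner pairs passed in 4 of 11 within the *FGF21* high group and in 8 within the *FGF21* low group. The correlation of *VTN* turned to 0.24 within the *FGF21* high group and to 0.12 without the 2 cows. The cause of these shifts was not tested; groups of 8 hold fewer cows than 16.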
